A study of Mus musculus with 16 samples.

Results

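Aminoacyl-tRNA synthetase genes were followed in N25/2 cells, an immortalized line from embryonic mouse hypothalamus. The medium of the cells held amino acids (control cells) or lacked them (deprived cells). The list named 36 genes, 20 for the enzymes of the cytosol and 16, whose symbols end in 2, for those of the mitochondria. Of these, 34 could be measured, 18 cytosolic and 16 mitochondrial, among 19938 genes with a named row on the arrays. Aars and Dars, the cytosolic alanine and aspartate enzymes, were not analysed here because no row carried their symbol alone. Every array held RNA of this one line, grown beforehand in DMEM with fetal bovine serum and antibiotics, and the labels name no genetic change in either group. The 5 h point had 4 arrays per condition, and the points at 1, 2, 3 and 16 h had 1 per condition. Nothing in the labels tells whether the 5 h replicates came from different cultures; the p-values therefore reflect the spread among these arrays alone, which could be technical.

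Each synthetase joins one amino acid to its transfer RNAs, and a charged tRNA is what the ribosome uses. When an amino acid runs short, uncharged tRNA accumulates and activates the kinase Gcn2, which slows translation and favours the transcription factor Atf4; many cytosolic synthetase genes are known targets of this amino acid response. Mitochondria charge their own tRNAs, mostly with a second set of enzymes coded in the nucleus. A few genes, Gars and Kars among them, supply both compartments with one gene.

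Deposited log2 values ran from 3.07 to 14.2, and array medians lay between 7.02 and 7.12. At 5 h the arrays numbered 4 often held the extreme value: of the 18 cytosolic genes, control array 4 was the highest of its group for 9 and the lowest for 6, and deprived array 4 the highest for 13 and the lowest for 2. Results that rest on these arrays are given with and without them. Of the marker genes listed for the cell type, 3 of 4 neural progenitor markers (Nes, Sox2 and Vim, but not Pax6) lay above the median of all rows, as did 3 of 10 neuronal markers (Map2, Eno2 and Stmn2) and 4 of 9 hypothalamic markers (Sim1, Npy, Cartpt and Gnrh1). Rbfox3, Snap25 and Syp, which define mature neurons, lay below it, as did Nkx2-1 and Pomc. This median is not a detection level, and Npy, at 6.90 to 7.56 on the 5 h control arrays, lay close to it. Of markers of other cells, 1 of 5 astrocyte, 1 of 4 oligodendrocyte, 2 of 5 leukocyte and 3 of 5 endothelial and fibroblast genes lay above it. The last 3 were Col1a1, Col3a1 and Dcn, whereas the endothelial markers Pecam1 and Cdh5 lay below it. At 5 h, 1 of these 42 markers changed in limma: Nes was lower (log2 change -0.69, SE 0.12, adjusted p = 0.00923).

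After 5 h without amino acids, most cytosolic synthetase genes were higher, and no mitochondrial one was called. Of the 18 cytosolic genes, 12 rose and 0 fell at an adjusted p of 0.05 in limma, with n = 4 arrays per group; over all genes 2.41 percent were called higher and 1.7 percent lower. Their median change (deprived minus control, log2) was 0.68, against -0.01 over all genes. Of the 16 mitochondrial genes, 0 were called in limma, 2 had an unadjusted p under 0.05 (13.7 percent of all genes did), and the median change was -0.01. Treating the replicate number as a block, 14 cytosolic genes were higher and 1 lower, and 2 mitochondrial genes were lower. In that fit 8.22 percent of all genes were higher and 10 percent lower. The labels do not say that same-numbered arrays are pairs. Without both arrays numbered 4, 14 cytosolic genes were higher and 0 of either set lower, against 6.34 and 7.17 percent of all genes. The cytosolic median change was then 0.54. With a minimum of 1.5-fold added, 9 cytosolic genes were called higher, against 1.25 percent of all genes. In 13 cytosolic genes every deprived array lay above every control array, whereas 5.15 percent of all genes showed that order.

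**Figure D1:**
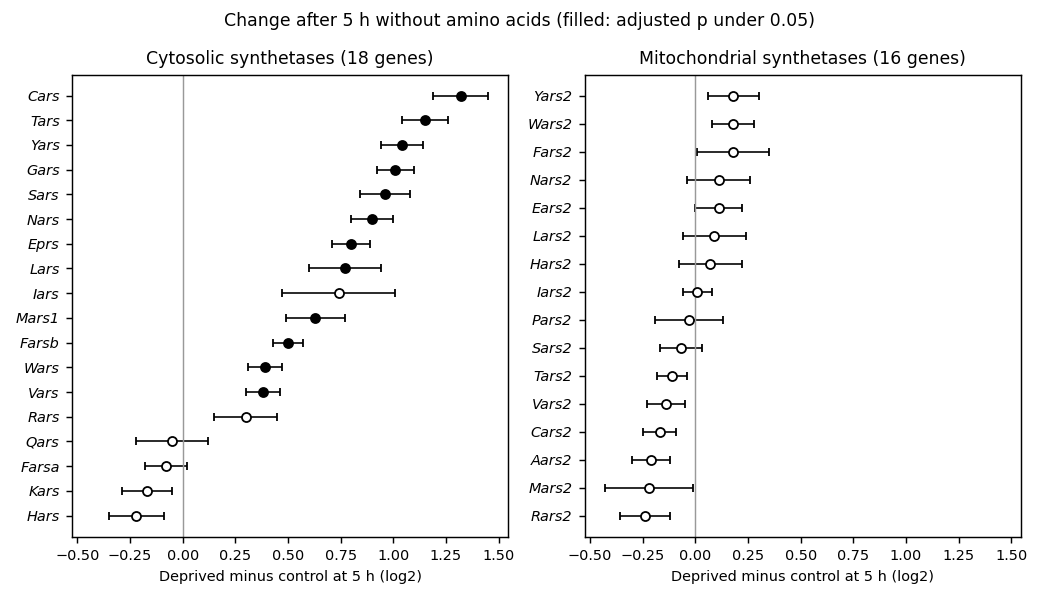
Change at 5 h (deprived minus control, log2, horizontal axis) for each cytosolic (left) and mitochondrial (right) synthetase gene; points are means of 4 against 4 arrays, bars are limma's standard error, and filled points have an adjusted p under 0.05. The cytosolic genes run from -0.22 (Hars) to 1.32 (Cars), the mitochondrial genes from -0.24 (Rars2) to 0.18 (Yars2).

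On the row of highest mean for each gene, the genes of enzymes that work outside the large multi-synthetase complex held the largest changes. Cars, the cysteine enzyme, stood on the control arrays at log2 levels of 8.98, 8.84, 8.81 and 9.18 and on the deprived arrays at 10.21, 10.12, 10.12 and 10.64. The groups were far apart, and array 4 was the highest in both. The rise was 2.5-fold (log2 1.32, SE 0.13, adjusted p = 0.000703 in limma).

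Tars, the threonine enzyme, was at 9.96, 9.74, 9.57 and 9.54 in control cells and at 10.90, 10.76, 10.80 and 10.97 in deprived cells. It rose 2.22-fold (log2 1.15, SE 0.11, adjusted p = 0.000402), with more spread among the controls than among the deprived arrays. Yars, the tyrosine enzyme, rose 2.06-fold (log2 1.04, SE 0.10), from 10.27, 10.11, 10.10 and 10.40 to 11.20, 11.27, 11.14 and 11.44. Every deprived array of Yars lay well above every control array.

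Gars, which codes for the glycine enzyme of both cytosol and mitochondria, stood at 11.00, 10.89, 10.73 and 10.73 in control and at 11.88, 11.79, 11.76 and 11.95 in deprived cells. The rise was 2.01-fold (log2 1.01, SE 0.09, adjusted p = 0.000326 in limma). The groups did not overlap, and array 4 was the highest of the deprived arrays.

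The promoters of Tars, Yars and Gars are shown because they hold the core of the element that C/EBP and ATF factors, including Atf4, can bind. Reference sequence from RefSeq (GRCm38.p6), from 100 bases before to 50 bases after the gene's start, is printed 5′ to 3′ on the gene's strand, with matches to TGATGNAA on either strand in capitals. The promoter of Tars2, the mitochondrial partner of Tars, is given for contrast and holds no match in this window. The windows lie at chr15:11399609-11399758 (minus strand, Tars), chr4:129189803-129189952 (plus strand, Yars), chr6:55037901-55038050 (plus strand, Gars) and chr3:95754928-95755077 (minus strand, Tars2).
Tars: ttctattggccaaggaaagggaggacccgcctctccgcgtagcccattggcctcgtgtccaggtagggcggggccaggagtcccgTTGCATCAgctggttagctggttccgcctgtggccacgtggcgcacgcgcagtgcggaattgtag
Yars: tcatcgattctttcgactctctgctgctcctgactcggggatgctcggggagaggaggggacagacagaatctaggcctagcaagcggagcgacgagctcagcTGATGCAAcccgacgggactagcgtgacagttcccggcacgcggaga
Gars: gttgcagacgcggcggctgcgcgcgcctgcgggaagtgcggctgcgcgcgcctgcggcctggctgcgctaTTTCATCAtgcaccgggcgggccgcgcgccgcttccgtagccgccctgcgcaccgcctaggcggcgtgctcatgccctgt
Tars2: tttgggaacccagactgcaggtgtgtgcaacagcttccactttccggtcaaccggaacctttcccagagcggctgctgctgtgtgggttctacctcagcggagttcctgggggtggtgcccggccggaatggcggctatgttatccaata

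The match began at position -15 in Tars, 4 in Yars and -30 in Gars, counted from the start site with no position 0. Windows of 300 bases (250 before to 50 after the start) were matched for 11 of the 18 cytosolic and 14 of the 16 mitochondrial genes. TGATGNAA was found in 4 of the 11 cytosolic genes, the fourth being Iars, and in 0 of the 14 mitochondrial ones. It was found in 3.97 percent of all 32851 windows and 3.62 percent of tested genes with a window. Sars, Eprs, Mars1 and Farsb, which were called higher at 5 h, had a window without a match. Cars, Nars and Lars were among the genes without a window. GCATGCGC, one form of the core of the element of Nrf1, a regulator of genes for mitochondrial proteins, was found in 0 cytosolic genes. It was found in 3 mitochondrial genes, Wars2, Rars2 and Vars2, against 2.71 percent of all windows and 4.29 percent of tested genes with a window. The form GCACGCGC was not counted. It stands in windows of both sets, those of Tars and Mars2 among them, so these counts hold for the letters searched alone. CACGTG, the E-box, was found in Tars, Iars and Farsb and in the mitochondrial Ears2, against 7.15 percent of all windows and 9.52 percent of tested genes with a window. Matches to these letters are a description of the windows and were not tested for use by any factor.

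Sars and Nars, the serine and asparagine enzymes, followed Gars in size. Sars rose by 0.96 (SE 0.12), from 11.47, 11.27, 11.22 and 11.62 in control to 12.29, 12.24, 12.23 and 12.65 in deprived cells, array 4 being the highest in each group. Nars rose by 0.90 (SE 0.10), from 11.92, 11.81, 11.67 and 11.47 to 12.64, 12.59, 12.61 and 12.63. Its deprived arrays had an SD of 0.02 and its control arrays an SD of 0.19.

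The remaining enzymes outside the complex changed less. Wars, the tryptophan enzyme, which interferon also induces, rose by 0.39 (SE 0.08, adjusted p = 0.0301 in limma), and Vars, the valine enzyme, by 0.38 (SE 0.08, adjusted p = 0.0299). Both sit near the threshold. The call for Vars ended when any array numbered 1 to 3 was left out (adjusted p up to 0.103), and the call for Wars ended without control array 2 or 3 or deprived array 1 or 2 (up to 0.119), while their changes stayed between 0.32 and 0.43.

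The phenylalanine enzyme is built from a catalytic alpha subunit (Farsa) and a beta subunit (Farsb), and its genes parted. Farsb rose by 0.50 (SE 0.07, adjusted p = 0.00565 in limma), whereas Farsa differed by -0.08 (SE 0.10, adjusted p = 0.963). Farsa was at 9.41, 9.30, 9.20 and 9.50 in control and at 9.48, 9.27, 9.14 and 9.20 in deprived cells, so the groups overlapped. The within-array difference Farsb minus Farsa was 0.32, 0.45, 0.41 and 0.20 on the control arrays and 0.75, 0.85, 1.00 and 1.10 on the deprived arrays; this pair was picked after its values were seen and its difference was not tested.

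Hars, the histidine enzyme, was the lowest cytosolic gene by change. It stood at 9.90, 9.68, 9.49 and 10.05 in control and at 9.59, 9.48, 9.45 and 9.73 in deprived cells, a difference of -0.22 (SE 0.13, adjusted p = 0.565 in limma). The groups overlapped, yet the deprived array was lower in all 4 same-numbered pairs. No share of all genes in such an order was computed, for Hars or for the genes below. With the replicate block Hars was called lower in limma (adjusted p = 0.0423). Without both arrays numbered 4 the difference was -0.19 and was not called (adjusted p = 0.288).

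**Figure D2:**
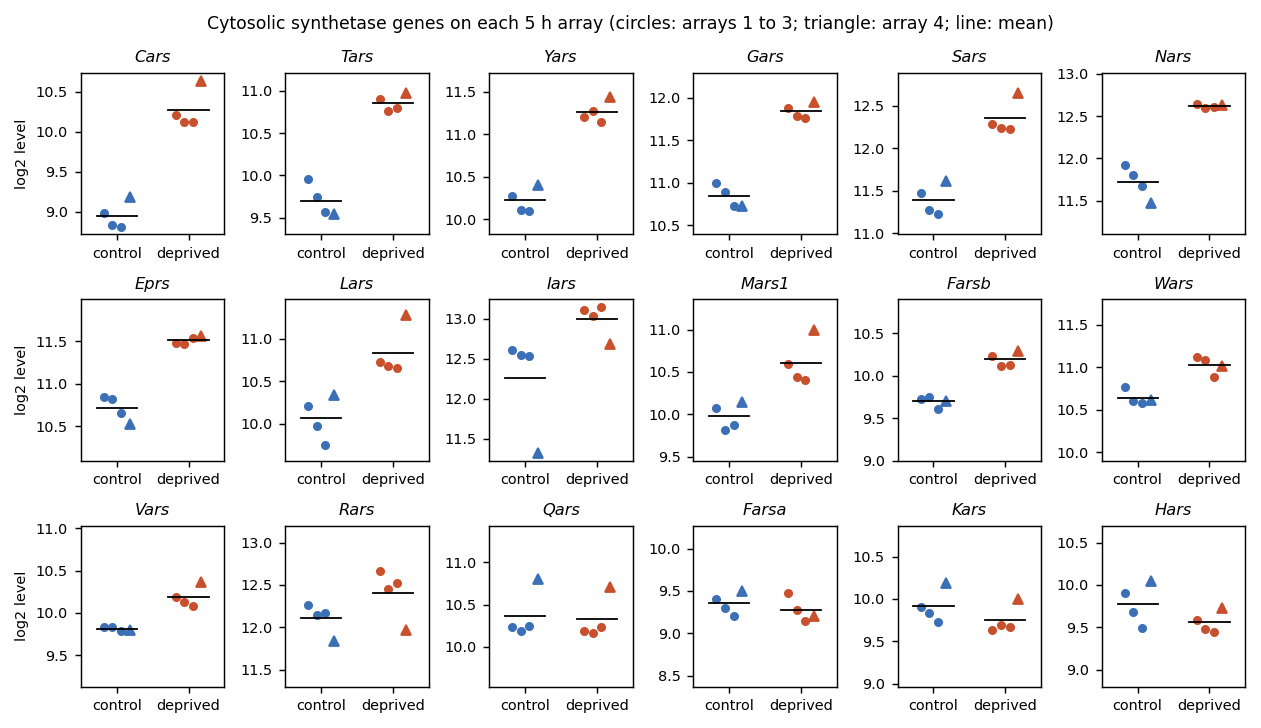
Log2 level of each of the 18 cytosolic synthetase genes on every 5 h array, control (blue) and deprived (red); circles are arrays 1 to 3, triangles array 4 and lines the group means. From Cars to Vars the groups do not overlap, and from Rars on they do; control array 4 of Iars lies at 11.32, below its other controls at 12.54 to 12.61.

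Among the enzymes of the multi-synthetase complex, a particle in which several synthetases are held together, 7 of 8 were measured and 3 rose. Eprs, one protein that charges both glutamate and proline tRNAs, rose by 0.80 (SE 0.09, adjusted p = 0.00108 in limma), from 10.85, 10.82, 10.65 and 10.53 to 11.48, 11.47, 11.54 and 11.56. Lars, the leucine enzyme and also a leucine sensor of the kinase complex mTORC1, was at 10.21, 9.97, 9.75 and 10.34 in control and at 10.73, 10.68, 10.66 and 11.28 in deprived cells. Array 4 was the highest in both groups of Lars, and the rise was 0.77 (SE 0.17, adjusted p = 0.0338).

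Mars1 (listed as Mars), the methionine enzyme, which also charges the initiator tRNA, rose by 0.63 (SE 0.14, adjusted p = 0.034 in limma). The calls for Lars and Mars1 ended when any array numbered 1 to 3 was left out, with adjusted p up to 0.113 and 0.119, and held without either array numbered 4. Without both of those arrays the changes were 0.71 and 0.55, both called.

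Iars, the isoleucine enzyme, was not called in the unblocked fit on the row kept, the one of highest mean. It stood at 12.61, 12.55, 12.54 and 11.32 in control and at 13.11, 13.03, 13.15 and 12.69 in deprived cells. The groups did not overlap, but control array 4 lay far below the other 3 controls. The difference of 0.74 (SE 0.27) did not pass (adjusted p = 0.216 in limma), and it passed with the replicate block (adjusted p = 0.00168) and without both arrays numbered 4 (0.53, adjusted p = 0.000396). Without control array 4 alone it was 0.43 (adjusted p = 0.0662).

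A second row of the array also names Iars. On that row the control arrays stood at 11.63, 11.55, 11.44 and 11.16 and the deprived arrays at 12.44, 12.35, 12.41 and 12.60. Control array 4 was the lowest there too, though closer to the others, and the rise was 1.01 (SE 0.11, adjusted p = 0.00105 in limma). The call for Iars thus differed between its rows, and with this row 13 cytosolic genes were called higher. In the order of row identifiers, this row stands near Fars2, on chromosome 13 like the Iars promoter window. The kept row stands near Mars2, on chromosome 1. Probe positions were not given, so the locus of either row was not checked.

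Rars, the arginine enzyme, was at 12.27, 12.15, 12.17 and 11.84 in control and at 12.66, 12.45, 12.52 and 11.97 in deprived cells. Array 4 was the lowest in both groups, which made them overlap, and the difference of 0.30 (SE 0.15) did not pass (adjusted p = 0.483 in limma). Each deprived array lay above the control of the same number, and Rars was called higher with the replicate block (adjusted p = 0.00871) and without both arrays numbered 4 (0.35, adjusted p = 0.00986).

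Qars and Kars, the glutamine and lysine enzymes of the complex, did not share the rise. Qars was at 10.23, 10.19, 10.25 and 10.80 in control and at 10.19, 10.16, 10.24 and 10.71 in deprived cells, a difference of -0.05 (SE 0.17, adjusted p = 1 in limma). Kars, which like Gars serves cytosol and mitochondria, was at 9.91, 9.84, 9.73 and 10.19 in control and at 9.64, 9.69, 9.67 and 10.00 in deprived cells, a difference of -0.17 (SE 0.12, adjusted p = 0.731). In both genes the groups overlapped, and array 4 was the highest of each group. The deprived array was the lower one in all 4 same-numbered pairs, by as little as 10.24 against 10.25 for Qars. No share of all genes in this order was computed, and no fall is read from it.

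Synthetases fall into 2 structural classes by the fold of their catalytic domain. Of 10 measured class I genes (Cars, Eprs, Iars, Lars, Mars1, Qars, Rars, Vars, Wars and Yars) 7 rose, with a median change of 0.68, and of 8 class II genes (Farsa, Farsb, Gars, Hars, Kars, Nars, Sars and Tars) 5 rose, with a median of 0.70. Eprs is counted with class I, although its part that charges proline tRNA is of class II. Of 11 genes outside the complex 9 rose (median 0.90), and of 7 in the complex 3 rose (median 0.63). With the replicate block 9 and 5 were higher, and Hars, outside the complex, was lower. Over all genes 2.41 percent were called higher, or 8.22 percent with the block. The counts for class I and for the complex rest on the Iars row kept, since its other row rose by 1.01 (adjusted p = 0.00105 in limma). Neither the 2 classes nor the genes in and outside the complex were tested against each other.

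Of the 16 mitochondrial genes, 8 differed upwards and 8 downwards at 5 h, between -0.24 and 0.18. The largest difference upwards was that of Yars2, the tyrosine enzyme, at 9.39, 9.37, 9.20 and 8.90 in control and 9.53, 9.38, 9.45 and 9.22 in deprived cells (0.18, SE 0.12, adjusted p = 0.675 in limma). Wars2 and Fars2, for tryptophan and phenylalanine, also differed by 0.18 (SE 0.10 and 0.17). Nars2 (asparagine) and Ears2 (glutamate) differed by 0.11, Lars2 (leucine) by 0.09 and Hars2 (histidine) by 0.07, with SEs of 0.11 to 0.15.

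Iars2 (isoleucine) differed by 0.01 and had one of the smallest standard errors of the set (SE 0.07). Pars2 (proline), Sars2 (serine), Tars2 (threonine) and Vars2 (valine) differed by -0.03, -0.07, -0.11 and -0.14. None of the mitochondrial genes from Yars2 to Vars2 was called in limma, with or without the block.

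At the lower end, Cars2, the cysteine enzyme, differed by -0.17 (SE 0.08, adjusted p = 0.339 in limma), and it was the one mitochondrial gene of 16 whose groups did not overlap. Of all genes 10.5 percent did not overlap, 5.38 percent with the deprived arrays lower. Its controls lay at 8.57 to 8.73 and its deprived arrays at 8.41 to 8.56. Rars2, the arginine enzyme, stood at 8.96, 8.77, 8.47 and 9.04 in control and at 8.57, 8.49, 8.52 and 8.69 in deprived cells, a difference of -0.24 (SE 0.12, adjusted p = 0.464) with overlapping groups.

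Mars2, the methionine enzyme, was at 9.35, 9.27, 9.26 and 8.55 in control and at 9.17, 8.97, 9.02 and 8.37 in deprived cells. The difference was -0.22 (SE 0.21, adjusted p = 0.893 in limma), with array 4 far below the others in both groups and the deprived array lower in each pair. It was -0.41 without control array 4, -0.05 without deprived array 4 and -0.24 without both, not called in any of these. Aars2, the alanine enzyme, was at 7.57, 7.71, 7.65 and 7.82 in control and at 7.39, 7.47, 7.43 and 7.63 in deprived cells (-0.21, SE 0.09, adjusted p = 0.308). Mars2 and Aars2 were called lower with the replicate block (adjusted p = 0.0221 and 0.0303), and neither was called without both arrays numbered 4 (0.0556 and 0.0678).

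Whether the cytosolic gene changed more than the mitochondrial gene for the same amino acid was tested on the difference of the 2 log2 levels within each array. Of 16 such pairs, 9 changed in favour of the cytosolic gene and 0 the other way (limma, adjusted over all genes and pairs together). Of single genes 4.11 percent were called in either direction. No such share was computed for differences between 2 genes, so these pair counts have no background of their own. With the replicate block 13 pairs were called that way and 1, Hars and Hars2, the other way. Eprs entered against both Ears2 and Pars2, and Fars2 against both Farsa and Farsb, so these pairs share a gene.

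The cysteine pair parted most. Cars minus Cars2 lay between 0.09 and 0.46 on the control arrays and between 1.67 and 2.07 on the deprived arrays, a difference of 1.49 (SE 0.12, adjusted p = 0.000169 in limma). The threonine pair differed by 1.27 (SE 0.11) and the serine pair by 1.03 (SE 0.11). For asparagine the difference was 0.78 (SE 0.10), for leucine 0.68 (SE 0.11), and for Eprs against Ears2 0.69 (SE 0.11); these 6 were called without any one of the 8 arrays.

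The other 3 called pairs were less firm. The tyrosine pair differed by 0.86 (SE 0.18, adjusted p = 0.0268 in limma), Eprs against Pars2 by 0.83 (SE 0.19, adjusted p = 0.0365) and the valine pair by 0.52 (SE 0.10, adjusted p = 0.0181). The tyrosine call ended when any array numbered 1 to 3 was left out (up to 0.0936). The Eprs and Pars2 call ended without control array 1 or 3 or deprived array 1, 2 or 3 (up to 0.123), and the valine call without control array 1 or 3 or deprived array 1 or 3 (up to 0.0651). With quantile normalization 7 pairs were called in favour of the cytosolic gene and 1 against it.

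Of the pairs not called, the methionine and isoleucine pairs differed by 0.85 (SE 0.31) and 0.74 (SE 0.27), with overlapping arrays; both were called with the block, and the methionine pair also without control array 4 (adjusted p = 0.0438). The arginine pair differed by 0.54 (SE 0.22), Farsb against Fars2 by 0.32 (SE 0.15), the tryptophan pair by 0.20 (SE 0.11) and Farsa against Fars2 by -0.26 (SE 0.19). Of these 4, the arginine pair and Farsb against Fars2 were called with the block (adjusted p = 0.000676 and 0.00383). Without both arrays numbered 4, the methionine, isoleucine and arginine pairs and Farsb against Fars2 were called (adjusted p up to 0.0258 in limma). The tryptophan pair and Farsa against Fars2 were not. The histidine pair ran the other way. Hars minus Hars2 lay between 1.13 and 1.21 in control and between 0.74 and 0.95 in deprived cells. The pair differed by -0.29 (SE 0.07), short of the threshold in limma (adjusted p = 0.0645) and past it with the block (adjusted p = 0.00562). Without both arrays numbered 4 the histidine pair differed by -0.26 and was called (adjusted p = 0.0168 in limma).

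**Figure D3:**
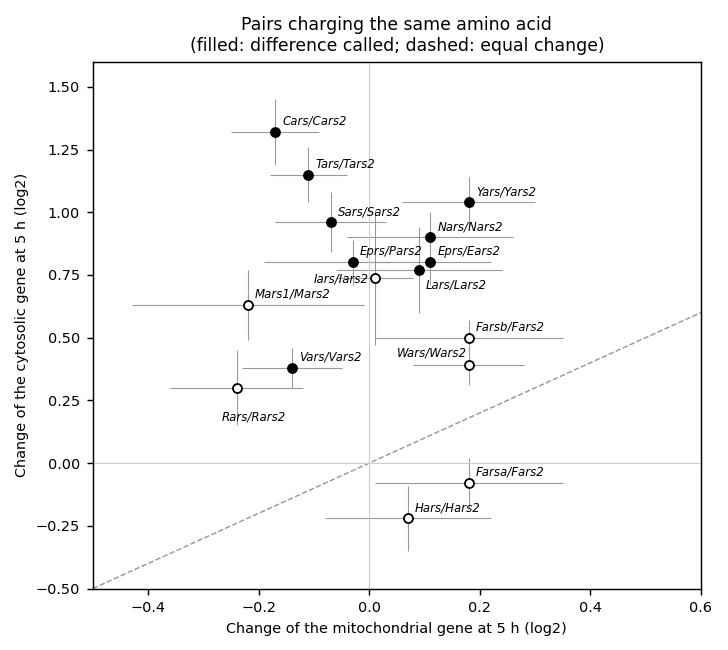
Change at 5 h of the cytosolic gene (vertical axis, log2) against that of the mitochondrial gene for the same amino acid (horizontal axis, log2), with the standard errors of limma's fit; filled points are the 9 pairs whose difference of changes was called, and the dashed line marks equal change. 14 pairs lie above the line, and Farsa with Fars2 and Hars with Hars2 lie below it.

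Over time the cytosolic set separated late. For the successive times of 1, 2, 3, 5 and 16 h, the median difference of the 18 genes was -0.08, 0.10, 0.13, 0.68 and 1.06, while that of the 16 mitochondrial genes was 0.01, -0.12, -0.05, -0.01 and 0.17. At 1, 2, 3 and 16 h each difference compares 1 array with 1 and has no replicate check. At 1 and 2 h none of the 34 genes differed by 0.5 or more; 0.226 percent of all genes were higher and 0.557 percent lower by that much at 1 h, and 0.787 and 0.978 percent at 2 h.

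At 3 h Cars alone was higher by at least 0.5 (0.80), against 0.843 percent of all genes, and Mars2 alone was lower by that much (-0.56), against 1.1 percent. None of the 34 differed by 1 or more at 3 h, where 0.0903 percent of all genes were higher and 0.0451 percent lower by that much. Cars was early in the series: it stood at 9.50, 9.45 and 9.54 in control cells at 1, 2 and 3 h and at 9.57, 9.86 and 10.34 in deprived cells. Sars, Yars, Mars1, Gars, Tars and Nars differed by 0.29 to 0.44 at 3 h, whereas Wars, which had risen at 5 h, differed by -0.06.

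At 16 h, 14 of the 18 cytosolic genes were higher by at least 0.5 and 1, Qars, was lower by 0.53; 9.36 percent of all genes were higher and 8.99 percent lower by that much. A difference of at least 1 was reached upwards by 9 cytosolic genes and 1 mitochondrial gene and downwards by none, against 1.96 percent of all genes higher and 2.97 percent lower. Of the 42 cell type markers 8 were lower by at least 0.5 at 16 h and 0 higher. Among them were the astrocyte marker Slc1a3 (12.24 in control and 9.75 in deprived cells), Col1a1 (12.03 and 9.90), Dcn (9.72 and 7.38), the neuronal marker Stmn2 (12.36 and 10.92) and the progenitor marker Sox2 (11.02 and 9.76). The mean log2 level of the progenitor list was 10.34 in control and 9.71 in deprived cells at 16 h, and that of the endothelial and fibroblast list 8.51 and 7.48. Their part in the differences of the synthetase genes was not tested. Lars had the largest difference (1.87; 9.64 in control and 11.52 in deprived cells), followed by Tars (1.72), Eprs (1.55), Iars (1.47), Wars (1.32), Yars (1.22), Sars (1.21), Nars (1.17), Gars (1.12), Mars1 (0.99), Cars (0.96), Rars (0.90), Farsb (0.85) and Vars (0.59). Cars, first at 5 h, was thus eleventh at 16 h. The other 4 genes lay below 0 at 16 h: Farsa (-0.10), Hars (-0.15), Kars (-0.45) and Qars (-0.53). In the 5 h comparison without a block none of these 4 was called (the smallest adjusted p was 0.565), and the sign of Farsa and Qars at 5 h changed under some alternatives.

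Of the mitochondrial genes, 3 were higher by at least 0.5 at 16 h, Nars2 (1.03; 8.13 in control and 9.16 in deprived cells), Yars2 (0.95; 8.85 and 9.80) and Wars2 (0.60; 8.47 and 9.07). Rars2 differed by 0.49, Tars2 by 0.36, Ears2 by 0.28, Mars2 by 0.19, Sars2 by 0.18, Hars2 by 0.16, Vars2 by 0.14 and Fars2, Iars2 and Lars2 by 0.04 to 0.06. Pars2, Aars2 and Cars2 lay at -0.03, -0.22 and -0.42.

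**Figure D4:**
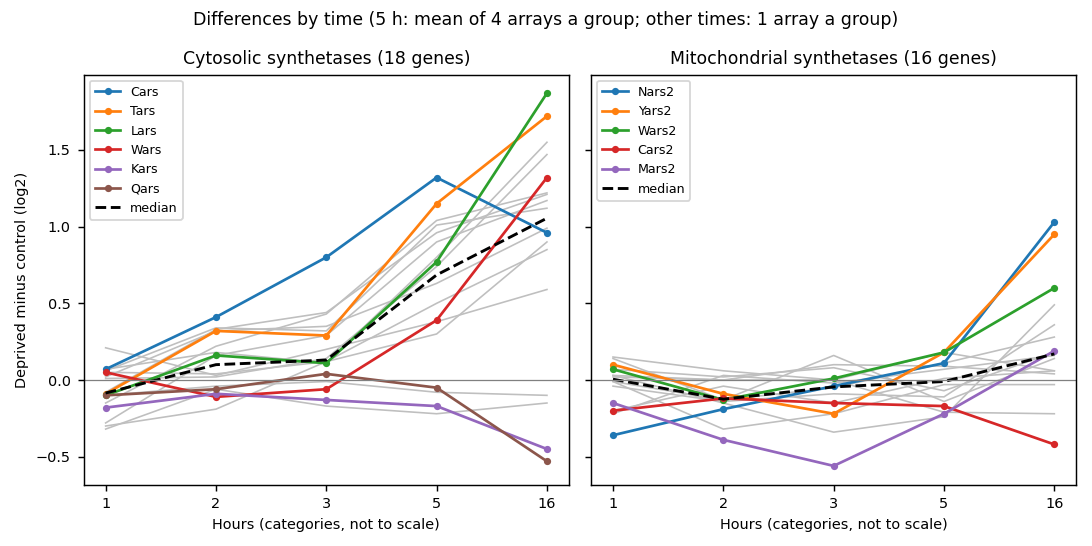
Deprived minus control (log2) at 1, 2, 3, 5 and 16 h for each cytosolic (left) and mitochondrial (right) synthetase gene, with named genes in colour, the others in grey and the median dashed; 5 h points compare 4 with 4 arrays and the others 1 with 1. The cytosolic median goes from 0.13 at 3 h to 1.06 at 16 h and the mitochondrial one from -0.05 to 0.17.

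Across the 18 cytosolic genes the 5 h changes ran with the differences at 2 h (Pearson r = 0.84, Spearman rho = 0.85), 3 h (0.84 and 0.81) and 16 h (0.82 and 0.69), and less with those at 1 h (0.32 and 0.38). Across the 16 mitochondrial genes the values at 16 h were 0.46 and 0.36. These are descriptions across genes, which are not independent replicates, and each time has its own control arrays. Testing the mean difference over 1, 2, 3 and 16 h with time as a factor, limma called 0 of the 34 genes and 0 percent of all genes. At an unadjusted p under 0.05 it gave 6 of 18 cytosolic and 1 of 16 mitochondrial genes, against 6.24 percent of all genes. These went both ways: Cars, Gars, Mars1 and Vars were higher, and Kars (-0.21), Hars (-0.17) and the mitochondrial Cars2 (-0.22) were lower. Tars was not among them. Cars had a mean difference of 0.56 (SE 0.15, adjusted p = 0.708) and Tars of 0.56 (SE 0.28, adjusted p = 0.808). The spread in this fit is that of the difference between times, so a difference that grows with time has a wide SE. Tars, for one, differed by -0.09, 0.32, 0.29 and 1.72 at 1, 2, 3 and 16 h. The fit therefore cannot tell an absent difference from one that grows.

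Control cells were not level over the series. From 1 to 16 h, 14 of the 18 cytosolic genes were lower in control cells, with a median difference of -0.38, while 17 were higher in deprived cells, with a median of 0.49; over all genes these medians were 0.05 and 0. Tars went from 10.09, 10.11 and 10.38 at 1, 2 and 3 h to 9.42 at 16 h in control cells and from 10.00, 10.43 and 10.67 to 11.14 in deprived cells. Gars was at 11.23, 11.11, 11.39 and 10.38 in control and at 11.29, 11.45, 11.71 and 11.51 in deprived cells at these times.

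The pattern was similar in the other leading genes. Yars was at 10.62, 10.67, 10.79 and 10.26 in control and at 10.47, 10.89, 11.22 and 11.48 in deprived cells at 1, 2, 3 and 16 h. Sars was at 11.79, 11.85, 11.95 and 11.24 in control and at 11.71, 12.19, 12.39 and 12.45 in deprived cells. Nars was at 12.07, 12.17, 12.18 and 11.58 in control and at 11.79, 12.33, 12.47 and 12.74 in deprived cells. Cars, at 9.10 in control and 10.06 in deprived cells at 16 h, was below its 3 h value in both. At 5 h the mean of Cars was 8.95 in control and 10.27 in deprived cells, so between 3 and 5 h the control level was the one that differed most; "rose" at 5 h thus means higher than control cells of the same time.

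Of the 16 mitochondrial genes, 7 were lower at 16 than at 1 h in control cells and 13 were higher in deprived cells, with median differences of 0.05 and 0.23. The sets were not tested against each other. Rars2 was at 8.59, 8.91, 9.19 and 8.81 in control and at 8.63, 8.76, 8.85 and 9.30 in deprived cells, so the deprived array was lower at 2 and 3 h and higher at 16 h. Mars2 was at 9.40, 9.59, 9.36 and 8.75 in control and at 9.25, 9.20, 8.80 and 8.94 in deprived cells. In bulk samples, a smaller share of cells that express a gene and less of its RNA per cell cannot be told apart.

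**Figure D5:**
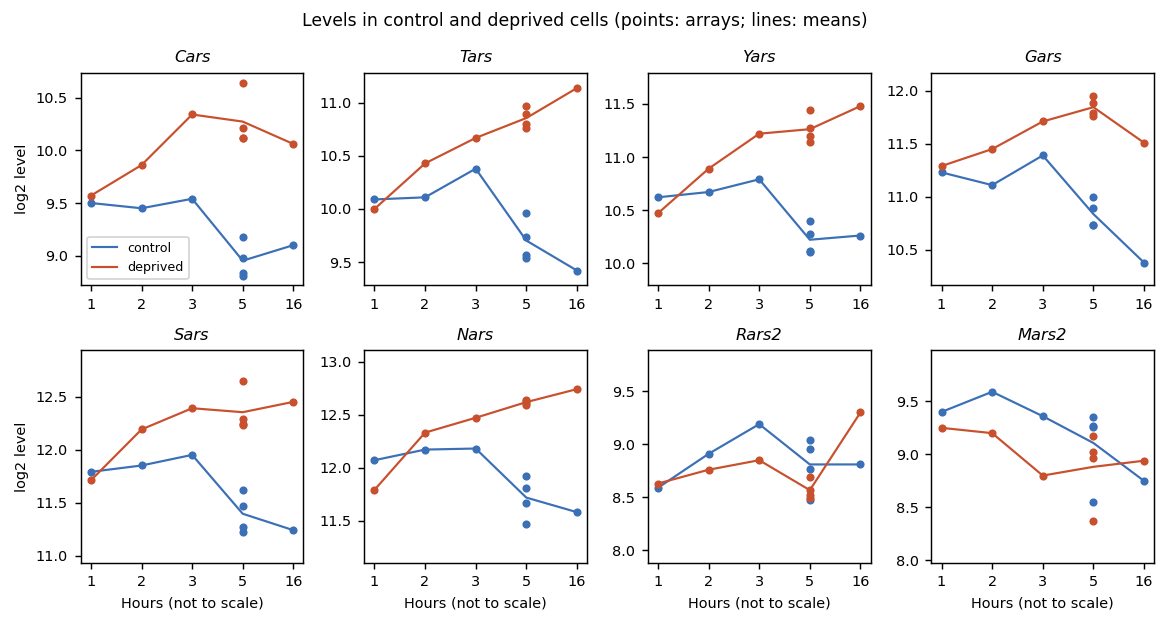
Log2 levels of the 6 cytosolic genes with the largest change at 5 h and of Rars2 and Mars2, in control (blue) and deprived (red) cells at 1, 2, 3, 5 and 16 h; points are arrays and lines join the means. In Tars the control line falls to 9.42 and the deprived line climbs to 11.14 at 16 h.

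The counts of other tRNA genes at 5 h are read against all genes, of which 2.41 percent were called higher and 1.7 percent lower, or 8.22 and 10 percent with the block. Of 16 measured partners of charging, among them the scaffold proteins of the complex, editing enzymes and the mitochondrial amidotransferase subunits, 1 was called in limma. This was Xpot, which codes for the exporter of tRNA from the nucleus, and it rose by 1.17 (SE 0.13, adjusted p = 0.00115), with differences of 0.03, 0.27, 0.42 and 1.98 at 1, 2, 3 and 16 h. The median change of the 16 genes was -0.02, and the block fit called 2 higher and 3 lower. Tarsl2, a further gene of a threonine enzyme, was counted in this list. It differed by -0.04 at 5 h (SE 0.11), was not called, and differed by 0.10 at 16 h.

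Among the 56 genes of tRNA transcription and maturation, 3 rose and 1 fell, with a median change of 0.09. Pus3, a pseudouridine synthase, rose by 0.61 (SE 0.10), Crcp, a subunit of RNA polymerase III, by 0.42 (SE 0.08) and Trmt1, a tRNA methyltransferase, by 0.37 (SE 0.09, adjusted p = 0.0447 in limma). Gtf3c1, which codes for a subunit of the factor that recruits this polymerase to tRNA genes, fell by 0.49 (SE 0.08). The call for Trmt1 ended without any one of the 8 arrays (adjusted p up to 0.162), and that for Crcp without control array 2 or 3 or deprived array 1 or 2 (up to 0.0837). The block fit called 13 higher and 5 lower. The 1 of 56 that fell is near the share of all genes called lower.

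Among 26 genes of mitochondrial translation, including the elongation and initiation factors and tRNA-modifying enzymes of that compartment, only Mterf3, a factor of mitochondrial ribosome assembly and transcription, was called in limma. It rose by 0.50 (SE 0.08, adjusted p = 0.00565), and 3 were higher with the block. The 1 of 26 lies near the 4.11 percent called among all genes. The median change of these genes was 0.04 at 5 h. At 16 h their median difference was 0.33, and that of the tRNA transcription and maturation genes 0.42, against -0.04 over all genes.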

How the data were processed

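Per the labels' protocols, biotin-labelled cDNA from 250 ng of total RNA was run on Affymetrix arrays that cover whole transcripts. Values were deposited on the log2 scale; the submitters' processing notes list RMA and limma with no version, and the RMA settings and genome build are not given in the sources used here. Of 35556 rows, 21789 carried 1 gene symbol in the platform annotation, updated through Entrez identifiers (21698 found) with a RefSeq table of GRCm38.p6. Rows with several symbols (1621) or without one here (12146) were not tested. Where a gene had more than 1 row, the one of highest mean was kept. The number of arrays limits the precision.

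Groups were compared at 5 h with limma 3.58.1 (R 4.3.3; lmFit, eBayes, two-sided, Benjamini-Hochberg over 19938 genes, threshold 0.05). Pair differences were added as rows to that table and adjusted with it. Single arrays were compared without a test, counted from an absolute log2 difference of 0.5, and their mean over 4 times was tested with time as a factor. Standard errors (SE) are limma's. On simulated data with independent noise on each array, the 5 h fit recovered 45 percent of log2 changes of 0.5 and 90 percent of those of 1. With the block it recovered 8.75 and 71.2 percent. Deviations shared by same-numbered arrays were not simulated, so the block was not tested under the conditions of these data. Plots used matplotlib 3.10.9 in Python 3.11.15.

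At 5 h, same-numbered arrays of both conditions deviated together (correlations of deviations 0.354, 0.584, 0.467 and 0.896), so the number was also fitted as a block; this check is the basis of the pairing, since what a number stands for is not labelled. The members, lists, motifs and tests were chosen with earlier results of these data known. All members were named; array values were given for the 8 cytosolic genes with the largest change, all cytosolic genes not called and the 4 mitochondrial genes with the largest difference, and of other lists up to 4 called genes in each direction were named. Alternatives were the block, quantile normalization, median centring, genes above the median level, averaging a gene's rows, fitting all 16 arrays, a trended and robust prior, array weights, other rows included, a 1.5-fold minimum and each array or time left out. Leaving out both arrays numbered 4 and the other Iars row were chosen after seeing the data.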

Additional observations from a re-analysis of the deposited data

Results flagged for a closer look

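In 9 of 68 member groups of 4 arrays at 5 h, 1 array stood far from the other 3; chance flags about 1 in 20 such groups, and 8 of the 9 were arrays numbered 4. Sars on deprived array 4 was at 12.65, with the others at 12.23 to 12.29. Lars on deprived array 4 was at 11.28 (others 10.66 to 10.73), and Kars on deprived array 4 at 10.00 (others 9.64 to 9.69). Qars was high on array 4 in both groups, at 10.80 in control (others 10.19 to 10.25) and 10.71 in deprived cells (others 10.16 to 10.24). Iars on control array 4 was at 11.32, with the others at 12.54 to 12.61. Of the mitochondrial genes, Lars2 was at 8.16 on deprived array 4 (others 7.74 to 7.76) and Mars2 at 8.55 on control array 4 (others 9.26 to 9.35). Tars2 on control array 2 was at 9.36, with the others at 9.42 to 9.43.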

How the results depend on the processing

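The 12 cytosolic genes called at 5 h were higher under all 20 alternatives, and 8 of them (Cars, Tars, Yars, Gars, Sars, Nars, Eprs and Farsb) were called under every alternative except the 1.5-fold minimum, which Farsb missed. The count of called cytosolic genes ran from 8 to 12 with single arrays left out, with a median change of 0.56 to 0.74. It was 15 with the replicate block and with array weights, 8 with other rows included and 9 with the 1.5-fold minimum. For mitochondrial genes 2 were called with the block, 6 with array weights (3 higher, 3 lower) and 0 without any single array, where the median change ran from -0.05 to 0.02. Of 22 genes not called, 8 changed sign under some alternative, and no direction is drawn for them. Pair differences called went from 9 to 14 with the block, with array weights and without both arrays numbered 4, and ran from 6 to 10 with single arrays left out. Over the 3 other lists together 6 genes were called, and 4 to 8 with single arrays left out. That count was 26 with the block, 43 with array weights, 18 without both arrays numbered 4 and 2 with the 1.5-fold minimum. Of all genes 4.11 percent were called without a block, 18.2 percent with it and 13.5 percent without both arrays numbered 4. No share of all genes is given for array weights, so the counts under that setting are not read as results about any list. With an absolute difference of 1 in place of 0.5, the cytosolic count at 3 h was 0 and at 16 h 9, and the mitochondrial count was 0 at 3 h and 1 at 16 h. Except for the fold minimum and the filters, the cause of these shifts was not tested. Over 1, 2, 3 and 16 h, 0 of the 34 genes were called in limma under any of 11 alternatives. With 4 arrays a group at 5 h and 1 at other times, the number of arrays limits all comparisons.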
